A study of Arabidopsis thaliana with 12 samples.

Results

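CPD and DWF1 are 2 Arabidopsis thaliana genes of brassinosteroid synthesis that lie under putative enhancer windows of this series. Each window is 3000 bp wide and carries a deposited RNA signal on both strands. The windows were found by position, as those that overlap AT5G05690 (CPD) and AT3G19820 (DWF1) in the TAIR10 annotation, and exactly 1 window was found over each gene, 2 of 1919 windows in all. The genes were selected on earlier results of these data, among them the mean signal of the gene strand over the 3 uninduced poly(A)+ libraries, which served to check the windows and was 142742 at CPD and 106758 at DWF1. Values that rest on those uninduced poly(A)+ gene-strand levels are therefore given as a description with no test.

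Brassinosteroids are plant steroid hormones that promote cell elongation, and mutants that cannot make or perceive them are dwarfed. DWF1 encodes the sterol reductase that makes campesterol, the membrane sterol from which brassinosteroids are built, out of 24-methylenecholesterol. CPD encodes the cytochrome P450 CYP90A1, which acts on the steroid further down the route to brassinolide, and its mutant is dwarfed and develops as if in light when kept in darkness. The hormone is perceived at the cell surface by the receptor kinase BRI1. The kinase BIN2 restrains the response, and transcription factors such as BZR1 lower CPD expression when the hormone is abundant.

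All libraries came from 7-day-old seedlings of 1 line in which estradiol switches on RNA interference against RRP41, a gene for part of the exosome core, and the exosome shortens and destroys RNA starting at the 3' end. Uninduced seedlings of that line were the control, and induced seedlings had germinated and grown on medium with 17b-estradiol, given in the labels as 8 mM. Total RNA was made into poly(A)+ libraries and into ribo-minus libraries, in which ribosomal RNA was removed and RNA without a poly(A) tail was kept. The 4 groups (uninduced and induced poly(A)+, uninduced and induced ribo-minus) had 3 biological replicates each, 12 libraries in all. Every group carries the construct, so estradiol, its induction and loss of RRP41 cannot be told apart, and in whole seedlings fewer cells of a type and less RNA per cell cannot be told apart either.

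The smallest value above 0, the nearest measure of depth in these data, ran from 107 to 1005 between libraries, and read numbers are unknown. Uninduced ribo-minus replicate 1 had equal forward and reverse values in 100% of windows and is called the unseparated library here. Its value stood at a median of 0.469 and 0.461 of the strand total in uninduced ribo-minus replicates 2 and 3, over the 67 and 58 windows where those libraries had signal on 1 strand only. A gene-strand value of that library is thus a mixture of both strands, and results that use it are given with and without it. No window (0) covered RRP41, which leaves the extent of RRP41 loss unmeasured, and none of 11 leaf and root marker genes listed to check the tissue had a window.

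The windows lie at opposite ends of their genes. The CPD window (chromosome 5, 1701028 to 1704027, TAIR10, counted from 1) covers the 3' part of CPD (minus strand, 1702640 to 1706948), 1388 bp or 32.2% of the gene, of which 771 bp are exonic and 504 bp coding. Its midpoint falls 113 bp beyond the 3' end of CPD, in the 3' untranslated region of MOS7 (AT5G05680, plus strand, 1698270 to 1702659), a nucleoporin gene related to animal Nup88. CPD and MOS7 converge and their annotated ends share 20 bp. The DWF1 window (chromosome 3, 6880760 to 6883759) covers the 5' part of DWF1 (minus strand, 6879524 to 6882315), 1556 bp or 55.7% of the gene, all of it exonic in at least 1 annotated transcript and 857 bp coding. Its midpoint lies 56 bp inside the gene from the annotated 5' end, in the 5' untranslated region, and no other gene is annotated in the window. The strand opposite CPD is thus the MOS7 strand, while the strand opposite DWF1 has no annotated gene.

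**Figure D1:**
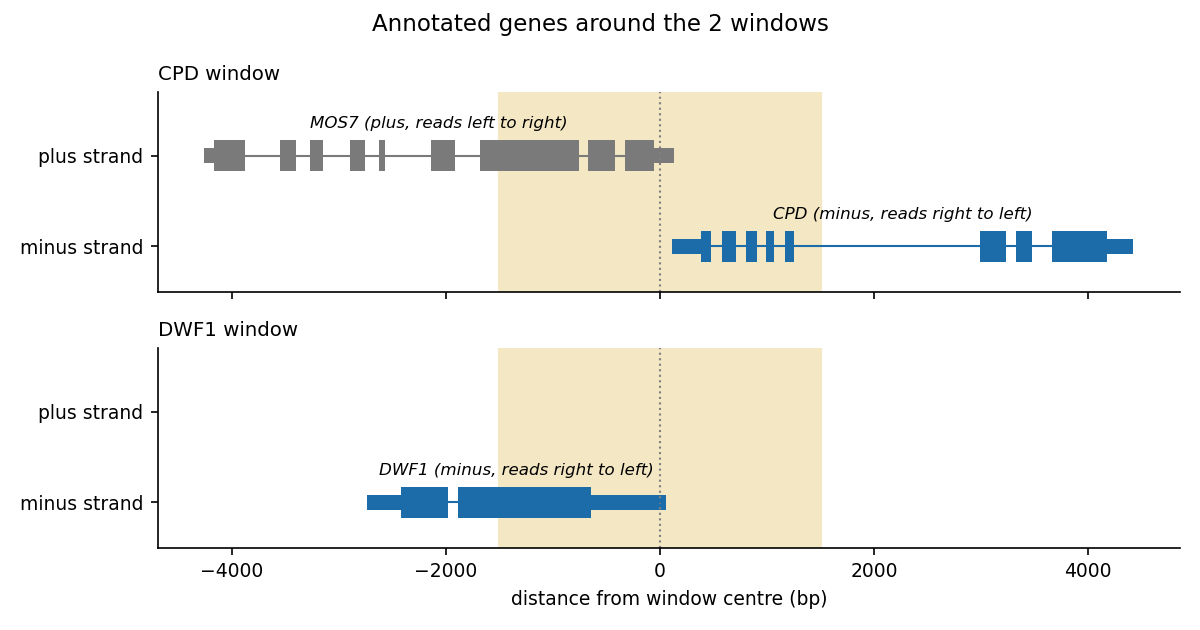
Annotated genes around the CPD window (top) and the DWF1 window (bottom), by distance from the window centre in bp; shading marks the 3000 bp window, tall boxes coding sequence, low boxes other exon sequence, lines introns. The CPD window holds the 3' part of CPD and the 3' part of MOS7 on the other strand, and the DWF1 window holds the 5' part of DWF1 alone.

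The 250 bases before the annotated start of each gene are shown because both genes were lower after induction in poly(A)+ RNA and only the DWF1 stretch lies inside its window. They were read 5' to 3' on the minus strand from the RefSeq TAIR10.1 chromosomes, whose nuclear sequence is that of TAIR10, at chr5:1706949-1707198 for CPD and chr3:6882316-6882565 for DWF1. Capitals mark matches to CANNTG, the E-box that basic helix-loop-helix and BZR1-family factors can bind, and to TATAAA.
CPD: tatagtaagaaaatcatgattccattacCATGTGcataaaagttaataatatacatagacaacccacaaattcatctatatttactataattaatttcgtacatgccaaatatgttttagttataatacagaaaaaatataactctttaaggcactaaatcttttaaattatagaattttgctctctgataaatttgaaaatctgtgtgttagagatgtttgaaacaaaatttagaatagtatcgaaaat
DWF1: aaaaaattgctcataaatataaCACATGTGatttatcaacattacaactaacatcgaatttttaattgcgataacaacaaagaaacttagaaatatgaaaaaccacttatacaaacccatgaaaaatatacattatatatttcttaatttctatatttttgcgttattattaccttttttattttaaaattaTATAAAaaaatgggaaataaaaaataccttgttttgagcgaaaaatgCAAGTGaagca
The CPD stretch has 1 match to CANNTG, starting 222 bases before the gene, and 0 to TATAAA. The DWF1 stretch has 3 matches to CANNTG, starting 228, 226 and 11 bases before the gene, of which the first and the second overlap, and 1 match to TATAAA, starting 58 bases before it. CGTGTG and CGTGCG, forms of the element that BZR1 binds, had 0 matches on either strand in both stretches. CACGTG, which is itself a form of CANNTG, had 0 as well. Only the 250 bases before the outermost annotated start were searched, although some annotated transcripts of both genes start further inside. Matches elsewhere at either gene were not looked for. Over the same 250 bases of 27443 protein-coding genes, both strands read, CANNTG was found in 55.3%, TATAAA in 47.3%, CACGTG in 6.49%, CGTGTG in 5.37% and CGTGCG in 1.57%.

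Signal on the CPD strand was lower by nearly 50% after induction in poly(A)+ RNA. The uninduced poly(A)+ libraries held 124114, 150339 and 153772, and the induced ones 68859, 77250 and 74238. The induced values all lay below the uninduced ones, as they did for 16% of 3297 strands tested. Group means were 142742 ± 16223 and 73449 ± 4251 (SD, n = 3 each), so the induced mean was 48.5% lower, a log2 change of −0.95 ± 0.10 (SE). The median change over all strands tested was −0.03. Of 95 other strands with a mean over the 6 poly(A)+ libraries at least as high as that of CPD, 0 had a change as low, and their median change was −0.04. This place among strands is a description and no test, since the genes were selected with these levels known. With median-ratio scaling of the libraries the change at CPD was −0.90, and it ran from −1.05 to −0.90 when each library was left out in turn.

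DWF1 was lower after induction as well. Its uninduced poly(A)+ libraries held 108622, 106537 and 105116, and the induced ones 58096, 55714 and 82141. These groups did not overlap either, and induced replicate 3 stood above the other two induced libraries. Means were 106758 ± 1763 and 65317 ± 14619 (SD, n = 3 each), 38.8% lower after induction, with a log2 change of −0.73 ± 0.14 (SE). Leaving out each library in turn gave −0.91 to −0.63, the lowest without induced replicate 3. Of 132 other strands at least as high in the poly(A)+ libraries, 4 had a change as low, again as a description. They were CPD, TPS11 (−0.81), a trehalose phosphate synthase family gene, and the strands of overlapping windows over Pnsl5 (−0.92 and −0.88). TPS11 and Pnsl5 were named after their values were seen.

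**Figure D2:**
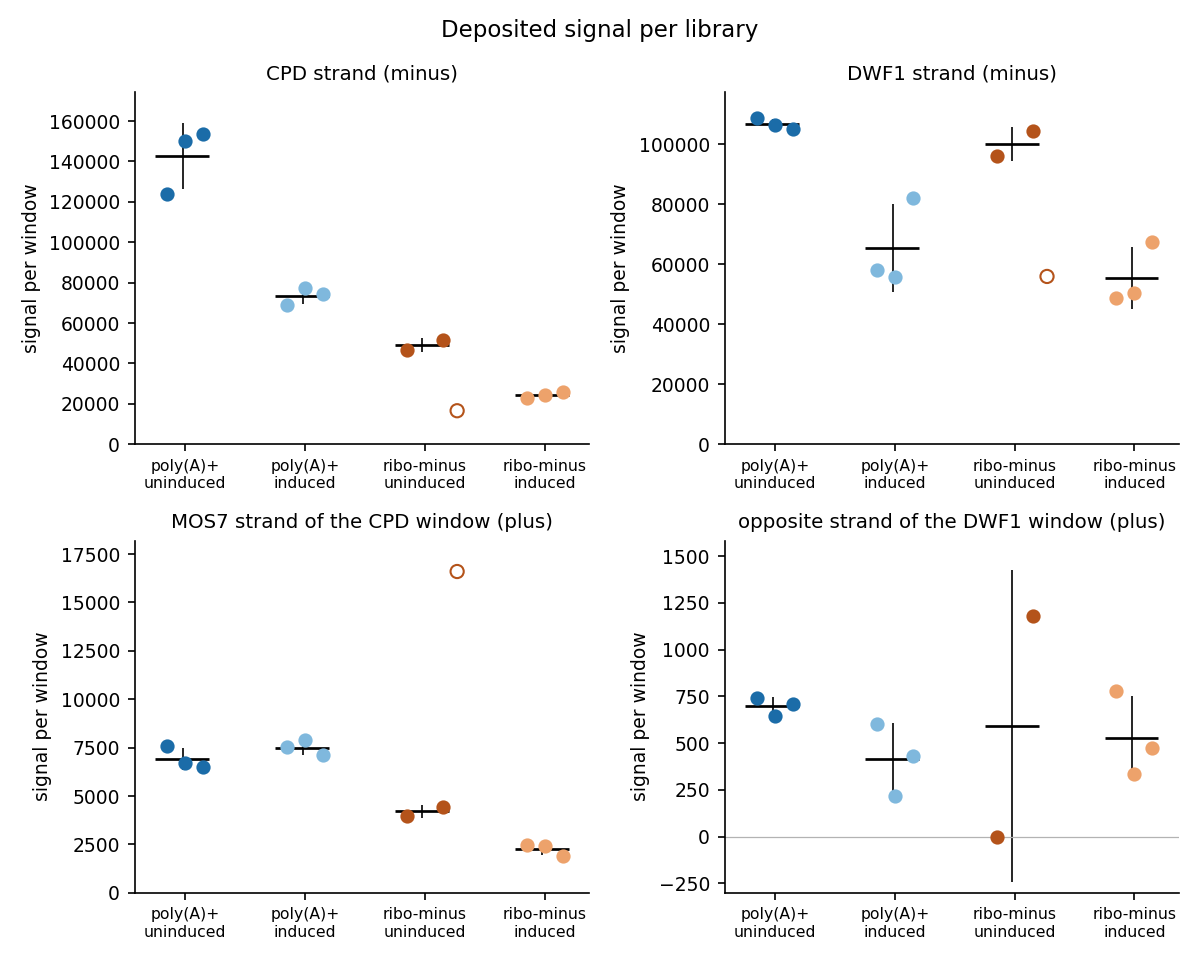
Deposited signal per window in each library for the CPD and DWF1 strands (top) and the opposite strands of their windows (bottom); filled points are libraries with separated strands, lines their mean and SD. Open points are uninduced ribo-minus replicate 1, whose strands were not separated (55919 on both strands at DWF1, left out of the bottom right panel). Induced libraries lie below uninduced ones on both gene strands in each RNA fraction once that library is set aside.

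Where strands were separated, the ribo-minus libraries also held less signal of both genes after induction. Their values did not serve to check the windows. The genes were chosen with earlier results of these data known, however, so the ribo-minus values may not be independent of that choice. CPD held 46608 and 51571 in uninduced replicates 2 and 3 and 23034, 24184 and 25654 in the induced libraries. DWF1 held 96201 and 104222 uninduced and 48617, 50566 and 67302 induced. At both genes every induced value lay below both of these uninduced values, as for 22.2% of the 3231 strands tested. Against the mean of these uninduced replicates the induced mean was 50.5% lower at CPD (49090 ± 3509, SD, n = 2, against 24291 ± 1313, n = 3) and 44.6% lower at DWF1 (100212 ± 5672, n = 2, against 55495 ± 10271, n = 3).

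At CPD, whether the ribo-minus change passed the test depended on the unseparated library. DWF1 passed only when that library was left out and values under 1005 were also set to 1005. The unseparated library held 16600 at CPD and 55919 at DWF1. With these values the groups overlapped at both genes, while 5.97% of strands were lower without overlap. With all 6 libraries, as designed, neither gene passed in limma, in which 0.155% of strands were called: the log2 change was −0.49 ± 0.44 (SE, adjusted p = 0.960) at CPD and −0.59 ± 0.57 (adjusted p = 0.960) at DWF1. Without that library, where 0.349% of 2868 strands were called, CPD fell by 1.01 ± 0.13 on the log2 scale (adjusted p = 0.0328), and DWF1 had a change of −0.87 ± 0.19 (adjusted p = 0.161). The median change of all strands was 0.20 with that library and −0.12 without it. A further run without the unseparated library was added after seeing the data. It also set values under 1005 to 1005, the lowest nonzero value that the shallowest library holds. There 1.59% of 2070 strands were called and both genes passed in limma (adjusted p = 0.00571 for CPD and 0.0379 for DWF1). The mean of both strand columns, also added after seeing the data, lets all 6 libraries be used on 1 scale. On it DWF1 held 55919, 48101 and 52701 uninduced and 24697, 25451 and 33889 induced. CPD held 16600, 25288 and 28007 uninduced and 12746, 13291 and 13771 induced. Neither passed in limma on that scale (log2 change −0.91 ± 0.17, adjusted p = 0.0525 for DWF1; −0.78 ± 0.20, adjusted p = 0.251 for CPD), and 10 of 1863 windows (0.537%) did.

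The change after induction was also set side by side between the RNA fractions. The ribo-minus change minus the poly(A)+ change was −0.06 ± 0.16 (SE) on the log2 scale at CPD and −0.14 ± 0.24 at DWF1 without the unseparated library, and 0.46 ± 0.49 and 0.14 ± 0.43 with it. The fractions share their total RNA but no libraries.

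The gene strands of the 2 windows differed in ribo-minus signal relative to poly(A)+ signal. The windows cover the 3' part of CPD and the 5' part of DWF1, and the part this has in the difference was not tested. In induced seedlings CPD was at 73449 ± 4251 in poly(A)+ and 24291 ± 1313 in ribo-minus libraries (SD, n = 3 each), a log2 difference of −1.60 ± 0.35 (SE), ribo-minus minus poly(A)+, that passed in limma (adjusted p = 0.00107). This fit called 42.1% of 3600 strands and the median difference of all strands was −1.34, and 37.2% of strands had a lower difference than CPD. The CPD groups did not overlap, as for 54.3% of strands. DWF1 was at 65317 ± 14619 and 55495 ± 10271, overlapping groups with a difference of −0.23 ± 0.31 that did not pass (adjusted p = 0.643), and 80.2% of strands had a lower difference. Of 97 other strands with a mean over the induced libraries at least as high, 6 had a difference as high as DWF1, and their median was −1.57. Those 6 were the windows over the spliceosomal RNA genes U2.6 and U2.3 and 3 windows in a row of the list on chromosome 5, over ENODL1, over AT5G53850 with AT5G53840, and over no gene on that strand, all named after their values were seen. The size of each difference rests on the scale of the libraries: with median-ratio scaling the median of all strands moved to 0.04, CPD stood at −0.20 ± 0.17 (adjusted p = 0.624) and DWF1 was higher in ribo-minus RNA by 1.17 ± 0.19 (adjusted p = 0.00116), with 14.2% of strands called.

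In uninduced seedlings the same order held as a description. In the uninduced ribo-minus replicates with separated strands, CPD was 65.6% below its poly(A)+ mean and DWF1 6.13% below its own, and 51.8% of strands tested were lower in ribo-minus RNA without overlap, both genes among them (44.1% with all libraries). As designed, in a fit that called 42.8% of strands, the log2 difference was −2.06 ± 0.35 (SE) at CPD and −0.37 ± 0.31 at DWF1, and without the unseparated library it was −1.54 ± 0.12 and −0.09 ± 0.18. The order of CPD levels, poly(A)+ uninduced, poly(A)+ induced, ribo-minus uninduced, ribo-minus induced, had no overlap between neighbours in libraries with separated strands. At DWF1 both uninduced groups stood above both induced groups, and the induced poly(A)+ and ribo-minus groups overlapped.

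The ratio of DWF1 to CPD within a library does not depend on how libraries were scaled. It was 0.875, 0.709 and 0.684 in uninduced and 0.844, 0.721 and 1.11 in induced poly(A)+ libraries. It was 2.06 and 2.02 in uninduced ribo-minus replicates 2 and 3, and 2.11, 2.09 and 2.62 in the induced ribo-minus libraries. Each ribo-minus library thus lay above each poly(A)+ library, while induced and uninduced libraries of a fraction lay close: the means were 0.756 ± 0.104 and 0.890 ± 0.197 in poly(A)+ (SD, n = 3 each), and 2.04 ± 0.03 (n = 2) and 2.27 ± 0.30 (n = 3) in ribo-minus RNA. The windows cover the 5' part of DWF1 and the 3' part of CPD, and the part this has in the ratio was not tested.

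**Figure D3:**
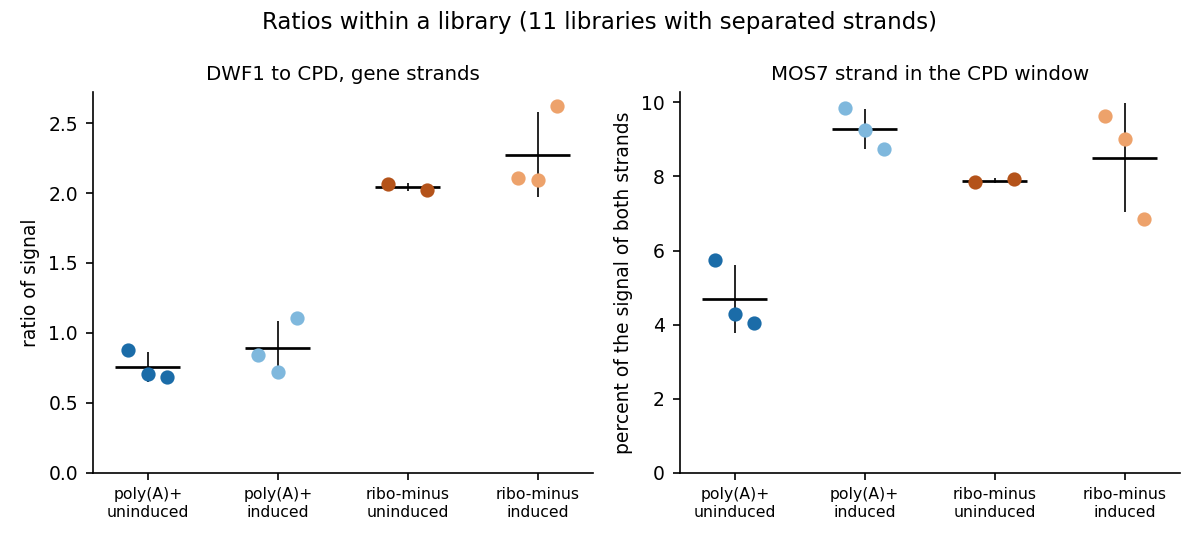
Left, ratio of DWF1 to CPD signal on the gene strands; right, MOS7-strand signal as percent of both strands of the CPD window; 1 point per library for the 11 libraries with separated strands, with mean and SD. The DWF1 to CPD ratio is 0.684 to 1.11 in poly(A)+ and 2.02 to 2.62 in ribo-minus libraries, and the MOS7 share is 4.05% to 5.75% in uninduced and 8.75% to 9.84% in induced poly(A)+ libraries.

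The MOS7 strand of the CPD window did not follow CPD in poly(A)+ RNA. MOS7 covers 1632 bp of the 3000 bp window, and signal on the rest of that strand is counted too. The strand held 7575, 6718 and 6487 in uninduced and 7513, 7883 and 7122 in induced poly(A)+ libraries, which overlap. The log2 change was 0.12 ± 0.11 (SE) and did not pass in limma (adjusted p = 0.577, with 4.12% of strands called). Its share of the signal of both strands was 5.75%, 4.28% and 4.05% uninduced and 9.84%, 9.26% and 8.75% induced, so the induced libraries all lay higher, with means of 4.69 ± 0.92% and 9.28 ± 0.54% (SD, n = 3 each). That share is untested, since it holds the CPD levels by which the window was identified.

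In ribo-minus RNA with separated strands the MOS7 strand held less signal after induction, a change that did not pass as designed. It held 3968 and 4442 in uninduced replicates 2 and 3 and 2458, 2398 and 1887 in induced libraries. As designed the change was −1.57 ± 0.50 (SE, adjusted p = 0.722 in limma), with a value of 16600 from the unseparated library, and without it −0.91 ± 0.27 (adjusted p = 0.161). The MOS7 strand passed when uninduced replicate 2 or 3 was left out (adjusted p = 0.0300 and 0.0248 in limma, with 1.9% and 1.85% of strands called) and with a filter on signal in every library (0.0368, with 3.28% called), and each of these fits holds the unseparated value. Its share of the window was 7.85% and 7.93% in uninduced replicates 2 and 3 and 9.64%, 9.02% and 6.85% in induced ones, with a difference of 0.617 points (two-sided exact permutation p = 0.6, adjusted 0.6 over 4 comparisons). With 2 against 3 libraries no p under 0.2 is possible, so this comparison could not pass. In induced seedlings the MOS7 strand was lower in ribo-minus than in poly(A)+ RNA, with a log2 difference of −1.75 ± 0.40 (limma adjusted p = 0.00178). This fit called 42.1% of strands, the median difference of all strands was −1.34, and 30.2% of strands had a lower difference. The share of the MOS7 strand was 9.28% in poly(A)+ and 8.50% in ribo-minus RNA (two-sided exact permutation p = 0.6, adjusted 0.6, libraries taken as unpaired). The smallest p that 3 against 3 unpaired libraries allow is 0.1, so this comparison could not pass. With median-ratio scaling the difference was −0.35 ± 0.60 (adjusted p = 0.847). In uninduced seedlings the difference was −0.06 ± 0.40 as designed (adjusted p = 0.934) and −0.72 without the unseparated library (adjusted p = 0.00420), where 51.3% of strands were called. The knockdown change of the MOS7 strand did not pass as differing between fractions in limma (−1.69 ± 0.57, adjusted p = 0.956, with 0.167% of strands called, and −1.03 ± 0.24, adjusted p = 0.0648, without the unseparated library, where 1.18% were called).

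The strand opposite DWF1 carried almost no signal. It held 643 to 741 in uninduced and 217 to 600 in induced poly(A)+ libraries, 0 and 1180 in uninduced ribo-minus replicates 2 and 3, and 336 to 776 in induced ribo-minus libraries. All but the value of 1180 lie below 1005, which the shallowest library could not have shown, so no change could be read at this depth. Its share of the window was at most 1.57% in any library with separated strands, and none of the 5 comparisons called it in limma as designed (adjusted p from 0.397 to 1). Without uninduced ribo-minus replicate 2, whose value is 0, the uninduced ribo-minus group is left with 1180 and the unseparated 55919. It then passed with the direction turned, at −4.02 in the ribo-minus knockdown (adjusted p = 0.000601 in limma, with 1.9% of strands called) and at 3.54 between uninduced fractions (adjusted p = 0.0305, with 45% called).

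Other genes of the pathway were taken from 6 lists, and 11 of 70 listed genes other than CPD and DWF1 had a window on their strand. In poly(A)+ RNA limma called 0 of these 11 after knockdown, where 4.12% of all strands were called, and 3 had an unadjusted p under 0.05, as had 714 of all 3297 strands. The median log2 change of the 11 was 0.02, against −0.03 for all strands. The 3 were all lower, SMT1, BSU1 and GSK1. The other sterol genes with a window were SMT1, the sterol methyltransferase at the start of the plant sterol route, whose window strand also holds PAO1 (111845 ± 4737 uninduced and 98405 ± 2552 induced, SD, n = 3; log2 change −0.18 ± 0.06 SE, limma adjusted p = 0.133), and SMO2-1, a sterol demethylation gene (0.13 ± 0.13, adjusted p = 0.606). Of the brassinosteroid-specific synthesis genes, 1 of 7 had a window, CPD itself. Among receptors, kinases and their partners, 7 of 17 had a window. BSU1, a phosphatase that acts on BIN2, had the lowest change of the 11 (−0.41 ± 0.14, adjusted p = 0.140), in a window that covers 11.4% of it and also holds AT1G03457. GSK1, a kinase related to BIN2, had a change of −0.16 ± 0.07 (adjusted p = 0.229). BRI1, the receptor, was at 73907 ± 7722 and 81770 ± 741 (log2 change 0.15 ± 0.09, adjusted p = 0.357), and BIN2, in a window that also holds AT4G18720, was at 158552 ± 17435 and 143536 ± 8846 (−0.14 ± 0.10, adjusted p = 0.464). BRL1, a receptor of the BRI1 family, had a change of 0.01 ± 0.31 (adjusted p = 0.993). BSK1 and BSL2, of the same list, had changes of 0.02 ± 0.07 (limma adjusted p = 0.933) and 0.06 ± 0.06 (adjusted p = 0.618). Of the inactivation genes only BAT1, an acyltransferase gene, had a window (0.23 ± 0.14, adjusted p = 0.400), and of the transcription factors and partners only BEH3, a BZR1 relative that shares its window strand with AT4G06855 and AT4G18900 (0.02, adjusted p = 0.979). None of the 8 responsive growth genes had one. SMT1, SMO2-1, BSU1, GSK1, BRI1, BSK1, BSL2 and BEH3 were named after their values were seen, since the windows cover less of them than the naming rule asked.

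The same 11 genes were lower in ribo-minus RNA, as most strands were. In induced seedlings limma called 10 of 11 lower, with a median log2 difference of −1.66 against −1.34 over all strands, of which 41.3% were called lower. BRL1 was the exception (−0.76 ± 0.59 SE, adjusted p = 0.367). After knockdown in ribo-minus RNA limma called 0 of 11 as designed, and 0 had an unadjusted p under 0.05, beside 0.155% of all strands called and 172 of 3231 with an unadjusted p under 0.05. Their median change was 0.23, against 0.20 over all strands.

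**Figure D4:**
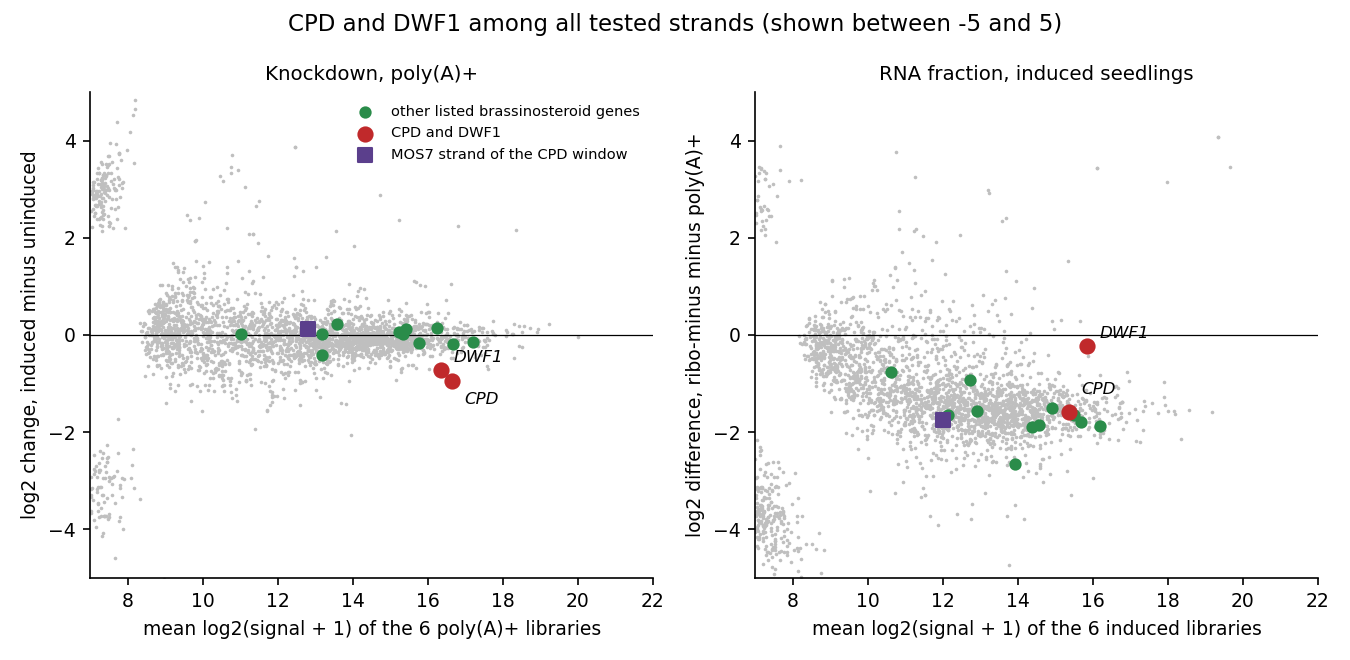
Each grey point is a strand of a window; the x axes give the mean log2(signal + 1) of the 6 poly(A)+ or 6 induced libraries, the y axes the log2 change after knockdown in poly(A)+ RNA (left) and the log2 difference between ribo-minus and poly(A)+ RNA in induced seedlings (right). Points with a mean under 7 or a value beyond 5 are not drawn. CPD (−0.95) and DWF1 (−0.73) lie below the 11 other brassinosteroid genes on the left, and DWF1 (−0.23) lies above CPD (−1.60) on the right.

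Strands most like each gene over the 11 libraries with separated strands were taken from 2071 strands with a gene and signal in each of these libraries. For CPD these were ACT11, an actin gene, with Pearson r = 0.985, AT1G15740 (0.984) and AT2G05260 (0.984), on log2(signal + 1). For DWF1 they were XCP2, a xylem cysteine peptidase gene (0.892), AT3G24020 (0.891) and DFL1, a GH3-family gene of auxin conjugation (0.876). CPD and DWF1 had r = 0.687 with each other. The libraries fall into 4 groups, so these values describe mostly the order of the group means. ACT11, for one, had means of 23320 and 14646 in uninduced and induced poly(A)+ and 9527 and 6385 in ribo-minus libraries. XCP2 had 3847 and 2760 in poly(A)+ and 4576 and 1979 in ribo-minus libraries, with both uninduced means above both induced ones, as at DWF1.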

How the data were processed

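RNA from seedlings of 4 groups was read out over putative enhancer windows. Per the labels, reads came from stranded Illumina kits; the submitters' processing notes name TopHat2 2.0.9, Cuffdiff, Cufflinks 2.1.1, CASAVA 1.8.2 and TAIR10; how the deposited signal per window and strand was made is not given in the sources used here. The deposited signal was used as it stands, with no rescaling. Forward and reverse columns were taken as plus and minus strand: in windows with genes on 1 strand, that strand was the higher in 96.9% to 99.1% of windows with unequal strands. Genes were placed with RefSeq TAIR10.1. limma 3.58.1 (R 4.3.3, trend) was fitted to log2(signal + 1) of strands above 0 in at least 3 libraries, on the 6 libraries of a fraction for the knockdown and on all 12 for the fractions and the interaction. P values were adjusted by Benjamini-Hochberg over all strands, with a threshold of 0.05. Fold changes are on that log2 scale. Shares were compared by exact permutation of unpaired libraries with scipy 1.17.1, on Python 3.11.15 with pandas 2.3.3 and numpy 2.4.6, and matplotlib 3.10.9 drew the plots. The fits were run on simulated data with equal, independent noise on every strand. Those data held no unseparated library and no pairing, so they do not bear on results that depend on either. The replicate number pairs the fractions, whose libraries share total RNA per the labels: same-numbered libraries deviated together (r from 0.083 to 0.408 over 1561 strands), while for induced and uninduced libraries the number is shared only. The main fits did not use this pairing, which entered only as the replicate block. The members and lists were chosen with earlier results of these data known. By the naming rule, listed genes were given with values where a window covers the greater part of the gene. Alternatives were other filters, pseudocounts of 0.1 and 100, no trend, median-ratio scaling, a common floor of 1005, leaving out each library and the replicate block. The mean of both strands, and the floor without the unseparated library, were added after seeing the data. Protein sequences were not used here.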

Additional observations from a re-analysis of the deposited data

How the results depend on the processing

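In poly(A)+ RNA the log2 change ran from −1.05 to −0.88 at CPD and from −0.91 to −0.63 at DWF1 over the alternative runs. Each run moved it by less than the replicate spread. That spread was the log2 SD within groups pooled over all 4 groups, with the unseparated library included. The other results depended mainly on the unseparated library and on scaling; causes were not tested further. Depth limits the strand opposite DWF1, which lies mostly under 1005. Without the unseparated library, with or without the floor, the log2 change in ribo-minus RNA was −1.01 at CPD, which then passed. The uninduced fraction difference became −1.54 at CPD and −0.72 on the MOS7 strand, and the interaction −0.061 at CPD. With the floor as well, DWF1 passed in ribo-minus RNA at −0.87. With the filter on signal in every library, the MOS7 strand passed at −1.57. With median-ratio scaling the uninduced fraction difference was −0.49 at CPD, 1.51 on the MOS7 strand and 1.19 at DWF1, and the induced one −0.20, −0.35 and 1.17, so DWF1 and, when uninduced, the MOS7 strand turned direction. On the mean of both strands DWF1 had −0.043 between uninduced fractions and −0.18 for the interaction. With all libraries, the share of the MOS7 strand differed by −13.4 points in the ribo-minus knockdown and 17.2 points between uninduced fractions.

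The 136 strands called in the poly(A)+ knockdown became 245 with the stricter filter, 225 with a pseudocount of 100, 262 with the floor and 64 with the replicate block. The 5 called in the ribo-minus knockdown became 0 with no filter (101 at an unadjusted p under 0.05 in limma), 71 with the stricter filter, 2 with median-ratio scaling, 8 with no trend, 10 with the replicate block, 10 without the unseparated library, 33 with the floor as well and 10 on the mean of both strands. Median-ratio scaling left 949 calls between uninduced and 512 between induced fractions. The interaction had 3 calls with no filter, 10 with no trend, 41 without the unseparated library and 17 with the floor as well. Among the results of CPD, DWF1 and their opposite strands that were tested, the replicate block changed no call; the gene strands in the poly(A)+ knockdown were not tested, and their changes of −0.95 and −0.73 are the same with the block. Induced and uninduced libraries share only a number: the correlations of same-numbered libraries were 0.10, 0.10 and −0.09 in poly(A)+ and 0.01, 0.05 and −0.04 in ribo-minus RNA, and not every library correlated best with its own number.

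With each library left out in turn, the ribo-minus change ran from −1.01 to −0.20 at CPD, from −1.94 to −0.91 on the MOS7 strand, from −0.87 to −0.42 at DWF1 and from −4.02 to 3.86 opposite DWF1. The uninduced fraction difference ran from −2.35 to −1.54 at CPD, from −0.72 to 0.31 on the MOS7 strand and from −4.34 to 3.54 opposite DWF1. The interaction ran from −0.061 to 0.76 at CPD, from −0.14 to 0.32 at DWF1 and from −3.17 to 4.72 opposite DWF1. Counts of calls ran from 68 to 202 (poly(A)+ knockdown), 3 to 61 (ribo-minus knockdown), 1425 to 1787 (uninduced fractions), 1364 to 1718 (induced fractions) and 3 to 41 (interaction).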
